A study of Rattus norvegicus with 8 samples.

Results

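The 109 genes described here were those with their highest expression in cardiac myofibroblasts that had been exposed to microcurrent. They were chosen from 21867 genes with estimated read counts, of which 11949 had a mean of at least 50 counts over the 8 libraries and 4674 were at 0 in every library. A gene became a member when the mean of the 4 treated libraries lay at least 0.8 above the mean of the cardiac fibroblasts and at least 0.8 above that of the untreated myofibroblasts, and when each treated library lay above each untreated one. These differences were taken in variance stabilised values (vst), a log2-like scale on which 1 unit is close to a doubling for well expressed genes. The treated-over-untreated difference is therefore how the genes were chosen and not a result, and its values are given as a description.

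RNA was sequenced from primary rat cells in 4 groups of 2 libraries. Cardiac fibroblasts (CF) came from neonatal Wistar Kyoto hearts and were grown in high glucose medium with 10% fetal bovine serum. They stand for healthy cells in the design. Untreated myofibroblasts (MF) were made from CFs by repeated passaging in low-serum medium and serve as the baseline. The treated groups were such myofibroblasts, plated on gelatin and given a direct current of 1 µA/cm2 or 2 µA/cm2 for 72 h. The current ran through platinum and iridium electrodes placed in the medium, without polarity reversal. The labels give standard medium with 10% serum for this period. The medium of the MFs over the same 72 h, and whether they had electrodes without current, are not given in the sources used here, so the current, the electrodes and the medium cannot be told apart. All groups descend from 1 kind of primary culture, and the labels do not tie libraries to separate isolations, so p-values measure the spread between these libraries, which may be technical.

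Fibroblasts are the resting matrix-keeping cells of the heart, and after injury or prolonged culture they turn into myofibroblasts, which contract and lay down collagen. Weak direct current acts on cells through the electric field, through ion flow and through chemistry at the electrodes, and fibroblasts are known to change their migration and growth under it. A gene that is highest in treated cells is one whose level lies outside the range between fibroblast and myofibroblast, in contrast to genes that a treatment carries from the myofibroblast level back towards the fibroblast level.

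The tables name genes by Ensembl identifier, and 0 of these identifiers could be paired with a symbol. The members are therefore described by rank, where rank 1 has the largest value of the smaller of its margins over CF and MF, and 4 of them are given by identifier. The function of each member, the fibroblast and myofibroblast markers behind the group labels, and member sequences were not analysed here.

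Library depth lay between 26473085 and 37903701 estimated counts. The second library at 2 µA/cm2 stood apart from the other treated libraries among the members, and the CF libraries differed from each other more than the MF libraries did. Where leaving out 1 library moved the fold of a member given by identifier by more than 1.5 times, the value without it stands beside the fold.

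Together the members took up a small and changing part of the RNA. They held 0.231% and 0.254% of all estimated counts in the CF libraries, and 0.321% and 0.323% in the MF libraries. In the treated libraries the share was 1.30% and 1.23% at 1 µA/cm2, and 1.38% and 0.917% at 2 µA/cm2. The untreated libraries lay close together, and among the treated ones the second 2 µA/cm2 library was the low value. In bulk RNA, more cells that express a gene and more RNA per cell cannot be told apart.

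A single gene, rank 8, supplied a large part of this. It held between 27.6% and 31.3% of the members' counts in the treated libraries, against 7.51% and 8.60% in CF and 15.3% and 17.3% in MF. Its normalized counts were 5832 and 5696 in CF, 17721 and 14736 in MF, 118941 and 114038 at 1 µA/cm2, and 113152 and 88829 at 2 µA/cm2. The groups were ordered CF, MF, treated, with no overlap between them. Its log2 fold change in treated cells was 2.74 ± 0.163 (SE) against MF and 4.14 ± 0.177 (SE) against CF. Without this gene the members still held between 0.630% and 0.996% of the treated libraries and between 0.211% and 0.273% of the untreated ones.

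Most members were less abundant. Their mean estimated counts ran from 55 to 59039 with a median of 548.5, compared with 855.5 over all genes with a mean of at least 50. There were 39 members with a mean of at least 1000 counts and 32 below 200.

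**Figure D1:**
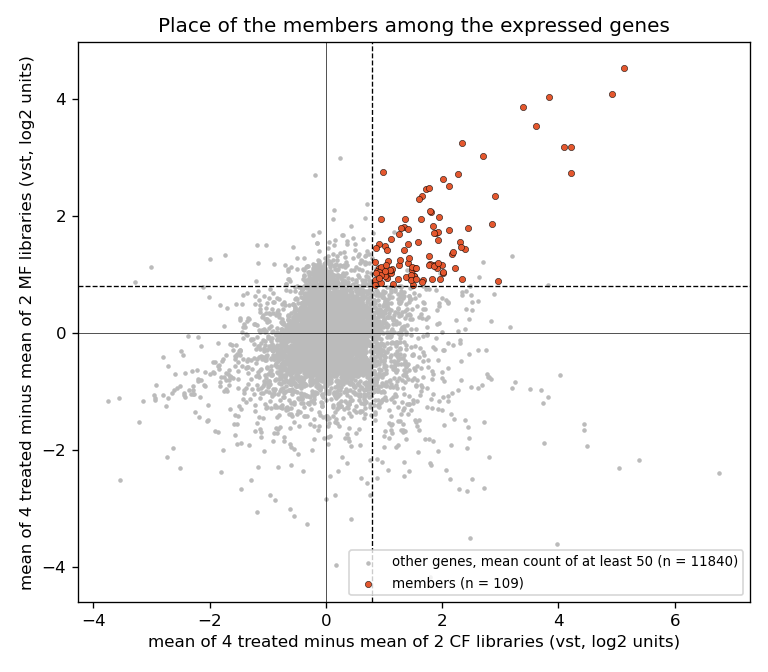
Each point is 1 of the 11949 genes with a mean count of at least 50, placed by the mean of the 4 treated libraries minus the mean of the 2 CF libraries (x axis) and minus the mean of the 2 MF libraries (y axis), both in vst (log2 units), with dashed lines at the margin of 0.8. The 109 members fill the upper right corner beyond both lines and thin out towards the largest margins, 5.13 over CF and 4.53 over MF.

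The members made up 0.912% of the 11949 genes. Every treated library lay above every untreated library in 863 genes, and 119 genes met both margins, of which 10 were left out because libraries overlapped. The margins over CF ran from 0.839 to 5.13 with a median of 1.54, and those over MF from 0.816 to 4.53 with a median of 1.21. Both margins reached 1 in 73 members and 2 in 14. The smaller margins of the members just inside the threshold were 0.827, 0.818 and 0.816, and those of the genes just outside it were 0.7998, 0.791 and 0.788, so no gap in the values marked the edge of the set. The treated mean lay nearer to CF in 44 members and nearer to MF in 65. Every treated normalized count was at least 2 times every untreated one in 34 members, and at least 4 times in 10.

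The mirrored rule, with treated libraries at least 0.8 below both groups and without overlap, found 120 genes. The numbers of genes beyond the untreated range were thus of similar size in the high and low directions.

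**Figure D2:**
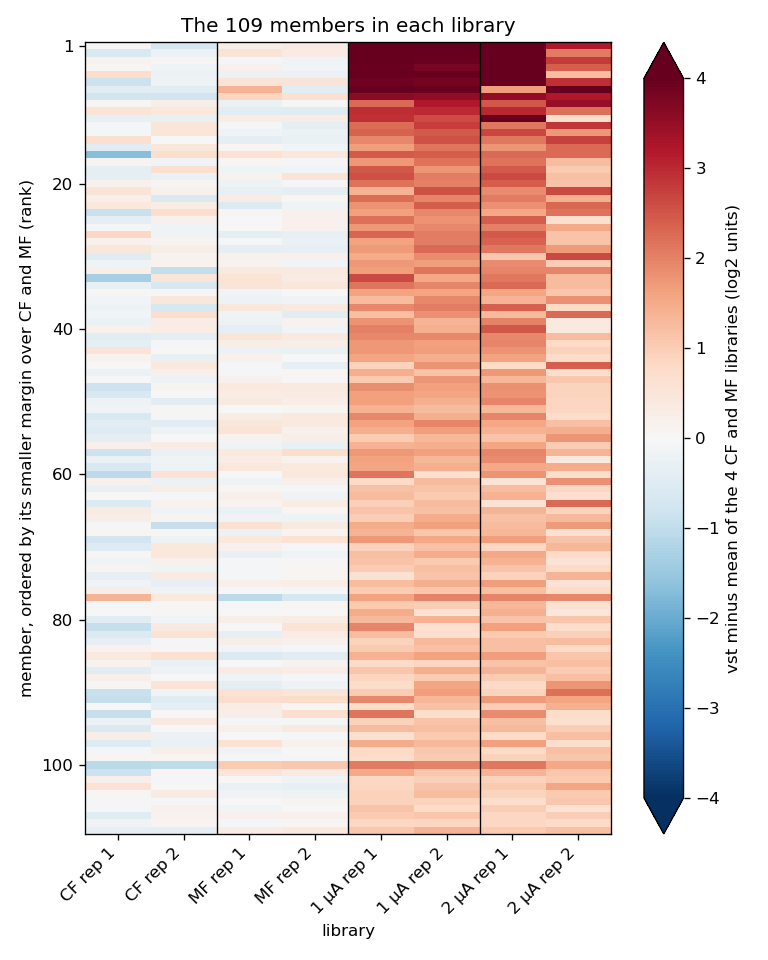
Each line is 1 of the 109 members, ordered by the smaller of its margins over CF and MF, and each column is a library, with colour giving the vst value minus the mean of the 4 CF and MF libraries (log2 units, colour scale limited to 4 either way). The 4 treated columns are red throughout, the CF and MF columns are pale, and the last column is paler than its 3 treated neighbours in many lines.

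The member of rank 1, ENSRNOG00000012772, had normalized counts of 850.3 and 487 in CF and 972 and 1063 in MF. The treated values were 32252 and 32773 at 1 µA/cm2, and 46060 and 7989.8 at 2 µA/cm2. All treated libraries were far above the untreated ones, and the libraries of the 2 µA/cm2 group spanned the whole treated range. The fitted log2 fold change of treated cells was 4.87 ± 0.786 (SE) over MF, or 29.3-fold, and 5.47 ± 0.813 (SE) over CF, or 44.3-fold. Without the first 2 µA/cm2 library these log2 values of ENSRNOG00000012772 were 3.99 and 4.59. Between MF and CF this gene gave 0.60 on the log2 scale (edgeR adjusted p = 0.586).

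The member of rank 2, ENSRNOG00000002331, was low in untreated cells, with normalized counts of 6.4 and 16.8 in CF and 57.1 and 44.6 in MF. It reached 3649 and 1669 at 1 µA/cm2, and 5228 and 283 at 2 µA/cm2. The second 2 µA/cm2 library was again the low treated value, although it still exceeded every untreated library. The log2 fold change was 5.74 ± 1.34 (SE) over MF and 7.90 ± 1.57 (SE) over CF, that is 53.5-fold and 239-fold. For ENSRNOG00000002331 the log2 value over MF fell to 4.10 without the first 2 µA/cm2 library, and the value over CF to 6.26. The value over CF was 7.33 without the first CF library and 8.69 without the second, so the size of this fold rested on single libraries.

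The next ranks had the same form. Rank 3 had 46.0 and 41.3 normalized counts in CF, 35.8 and 29.8 in MF, 1778 and 1371 at 1 µA/cm2, and 2570 and 591 at 2 µA/cm2. Rank 4 had 38.7 and 26.6 in CF, 45.2 and 29.7 in MF, 1363 and 1212 at 1 µA/cm2, and 1514 and 423 at 2 µA/cm2. Rank 6 had 25.5 and 66.0 in CF, 145 and 142 in MF, 2088 and 2008 at 1 µA/cm2, and 2462 and 1030 at 2 µA/cm2. In ranks 1 to 4 and 6 the first 2 µA/cm2 library was the highest and the second the lowest of the treated libraries.

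Rank 9 ran differently. Its normalized counts were 244 and 275 in CF and 180.3 and 214 in MF, then 1330 and 2631 at 1 µA/cm2, and 1566 and 3211 at 2 µA/cm2. Here the second 2 µA/cm2 library was the highest of the 8, and the replicates of both treated groups lay apart by more than the difference between the doses.

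There were 3 members at 0 in a whole untreated group. Rank 5 was at 0 in both MF libraries and 1 CF library, with 15.9 in the other CF library, 749 and 631 at 1 µA/cm2, and 1201 and 40.2 at 2 µA/cm2. Against a floor of 3 counts over the MF group it was at least 437-fold higher in treated cells. Ranks 7 and 11 were at 0 in both CF libraries and were at least 478-fold and 205-fold higher in treated cells on the same floor over the CF group. The bound for rank 7 holds for the estimated counts alone, since the whole-number counts described below gave it 123397 and 88651 counts in CF. The members' median log2 fold changes were 1.73 over MF and 1.92 over CF. Setting these genes to their bounds could not move the medians, since the bounds lie far above them.

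**Figure D3:**
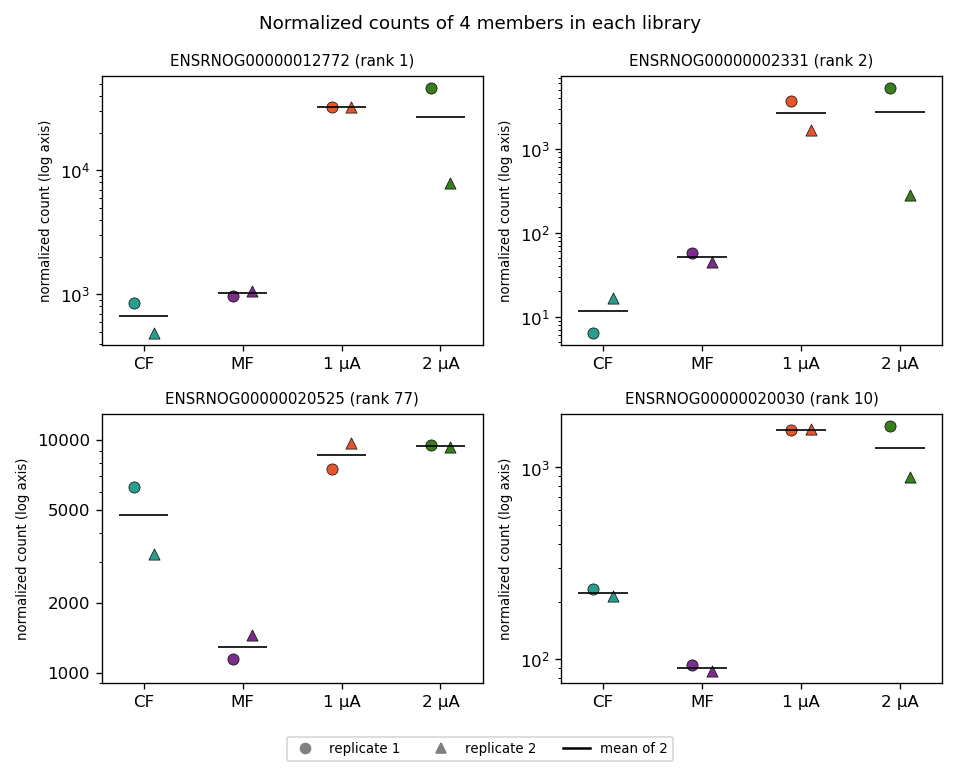
Normalized counts (log axis) of 4 members in the CF, MF, 1 µA/cm2 and 2 µA/cm2 groups, with circles for replicate 1, triangles for replicate 2 and a bar at the mean of the 2 libraries. In ENSRNOG00000012772, ENSRNOG00000002331 and ENSRNOG00000020030 the second 2 µA/cm2 library lies below the other treated libraries, and in ENSRNOG00000020525 and ENSRNOG00000020030 the MF libraries lie below the CF libraries.

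Over all members the log2 fold change of treated cells against MF had a median of 1.73, with quartiles of 1.25 and 2.50, and against CF a median of 1.92, with quartiles of 1.504 and 2.55. Over the 13849 genes tested these medians were 0.000415 and -0.0147. A gene was called when its p from the edgeR fit, adjusted over all genes tested by the Benjamini-Hochberg method, was below 0.05 and its log2 fold change was at least 1 in size. All 109 members passed the filter on low counts. There were 77 members called higher than MF, where 2.87% of all genes tested were, and 78 called higher than CF, where 4.22% were. The rule used these contrasts, so nothing is read from the counts. Leaving out either MF library reduced the first count to 1 or 3, and leaving out the second 1 µA/cm2 library reduced it to 40, while the median stayed between 1.63 and 1.82 whichever library was left out. The same libraries of MF and CF stand in both dose comparisons: the median over MF was 1.83 for 1 µA/cm2 and 1.71 for 2 µA/cm2, and over CF 1.97 and 1.92.

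The doses were then compared with each other. The rule did not use their difference, but it required the libraries of both doses to lie above the untreated ones. Genes raised at either dose alone could therefore not be members, which limits the dose differences that members can show. Of the 109 members, 0 were called between 2 µA/cm2 and 1 µA/cm2 by edgeR, against 0.00722% of all genes tested, and 0 had an unadjusted p below 0.05, against 0.52% of all genes. The smallest unadjusted edgeR p of a member was 0.0528, with an adjusted p of 1. DESeq2 also called 0 members, and called 0.0407% of its tested genes. The log2 fold changes ran from -0.52 to 0.78 with a median of -0.11, 36 members were above 0 and 73 below, and 104 lay within 0.5 of no difference.

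The replicate spread limits this comparison. The median SE of a member's dose difference was 0.355 on the log2 scale. The 95% interval of the difference lay within 1 log2 unit either way in 52 members and reached past 1 in the other 57. For ENSRNOG00000012772 the difference was -0.27, with an interval from -1.91 to 1.38, and for ENSRNOG00000002331 it was 0.05, with an interval from -2.46 to 2.56. A difference of several fold between the doses was not detectable for these genes. The median dose difference was -0.39 without the first 2 µA/cm2 library and 0.08 without the second, so its sign rested on single libraries.

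The rule did not fix the order of MF and CF either. From CF to MF the members had a median log2 fold change of 0.11, with quartiles of -0.36 and 0.68, where all genes tested had -0.03, with quartiles of -0.32 and 0.31. Both MF libraries lay above both CF libraries in 41 members and below them in 29, and the groups overlapped in 39. The same counts over all genes are not given here, so nothing is read from these counts. The edgeR test called 9 members higher in MF (8.26%), where 6.36% of all genes tested were, and 4 lower (3.67%), where 4.02% were. The members had a median SE of 0.384 in this contrast and all genes tested 0.180, so a call needed a larger difference in a member than in most genes, and equal shares of calls do not show equal change. Of the 120 genes of the mirrored rule, 2 were called higher in MF and 28 lower.

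The 9 members called higher in MF than CF were thereby in the order CF, MF, treated. They were ranks 8, 53, 54, 57, 59, 69, 87, 91 and 100. Rank 100 had the lowest adjusted p, 0.00177 by edgeR, with normalized counts of 398 and 414 in CF, 1884 and 1988 in MF, 4022 and 3749 at 1 µA/cm2, and 4101 and 2749.5 at 2 µA/cm2. Rank 91 had 759.7 and 1066 in CF, 2493 and 2569.8 in MF, 5910.3 and 3914 at 1 µA/cm2, and 5123 and 4633 at 2 µA/cm2. In both genes the groups were separate and the mean fold from MF to treated cells was smaller than that from CF to MF. The count of 9 fell to 2 without either MF library and to 4 without either 1 µA/cm2 library, and rose to 14 without the second CF library.

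The 4 members called lower in MF were ranks 10, 29, 77 and 85. In these, expression fell from CF to MF, and the treated libraries lay above both groups. ENSRNOG00000020525 (rank 77) had 6279 and 3223 normalized counts in CF, 1139 and 1446 in MF, 7504 and 9721 at 1 µA/cm2, and 9538 and 9341 at 2 µA/cm2. It was lower in MF than CF by a log2 fold change of -1.92 ± 0.322 (SE, edgeR adjusted p = 0.0123). The treated cells lay 2.82 ± 0.312 (SE) above MF, or 7.06-fold, but only 0.90 ± 0.279 (SE) above CF, and the latter value moved from 0.50 to 1.49 depending on which CF library was left out. The treated level of this member therefore lay nearer to CF than to MF, at an uncertain distance above CF.

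ENSRNOG00000020030 (rank 10) had 232 and 213 normalized counts in CF and 93.5 and 87.0 in MF. The treated values were 1568 and 1587 at 1 µA/cm2, and 1645 and 895 at 2 µA/cm2. The MF level was lower than CF by a log2 fold change of -1.31 ± 0.291 (SE, edgeR adjusted p = 0.0262), and treated cells were 3.98 ± 0.287 (SE) above MF and 2.67 ± 0.257 (SE) above CF. Its treated level was well beyond the fibroblast level, at 6.36-fold of CF. The dose difference of the first of these genes was 0.12, with a 95% interval from -0.61 to 0.86, and that of the second -0.31, from -0.92 to 0.29.

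Rank 29 had 146 and 118 normalized counts in CF and 61.0 and 61.8 in MF, with 440 and 676 at 1 µA/cm2, and 595 and 439 at 2 µA/cm2. Rank 85 had 1314 and 1557 in CF and 653 and 700.4 in MF, with 2677 and 3165 at 1 µA/cm2, and 3296 and 2225 at 2 µA/cm2. All 4 of these calls were lost when either MF library was left out.

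The members varied more among the 4 treated libraries than other genes did. The range of a member's 4 treated vst values had a median of 0.745, with quartiles of 0.485 and 1.23, and passed 1 in 38 members (34.9%). Over all genes with a mean of at least 50 the median range was 0.249 and 3.55% passed 1, and in the mirrored low set the median was 0.486 and 8.33% passed 1. The median gap between the 2 µA/cm2 replicates was 0.659 for members against 0.164 for all genes, and that between the 1 µA/cm2 replicates was 0.270 against 0.113. The gap between the MF replicates was 0.127 against 0.101, so on the vst scale the members were not equally variable in every group. That scale compresses low counts, and the members were chosen to be lower in the untreated libraries. The CF gap was 0.367 against 0.210. The set was chosen on these treated values, so the comparison is a description.

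**Figure D4:**
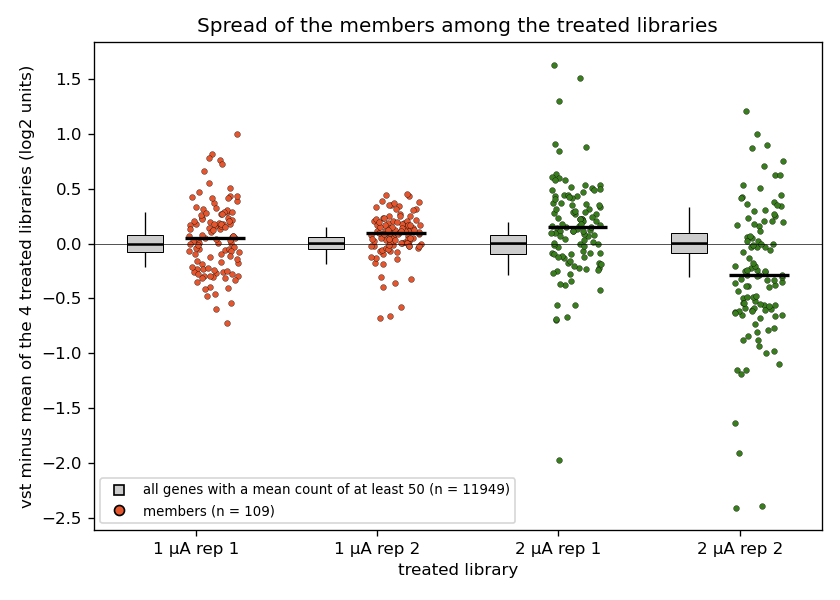
For each treated library, points show the vst value of each of the 109 members minus that gene's mean over the 4 treated libraries (log2 units), with a thick bar at the median, beside a grey box for all 11949 genes with a mean count of at least 50 (box from the first to the third quartile with the median, line from the 5th to the 95th percentile). The second 2 µA/cm2 library has a median of -0.29 and the widest scatter, whereas the other treated libraries have medians between 0.05 and 0.15.

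The second 2 µA/cm2 library was the lowest treated library in 63 members (57.8%), against 30.7% of all genes with a mean of at least 50, and the highest in 27 (24.8%), against 32.8%. The first 2 µA/cm2 library was the highest in 45 (41.3%). In the mirrored low set the second 2 µA/cm2 library was the highest in 75 of 120 genes (62.5%). In both sets it was thus the treated library that most often lay closest to the untreated cells. A principal component analysis was run on the members' deviations from their treated means, without centring each library. The first component held 86.7% of the summed squares, against 65.4% for all genes with a mean of at least 50. A shift of a whole library counts in these shares. For the members its weights were 0.79 for the second and -0.53 for the first 2 µA/cm2 library. They were -0.30 and 0.03 for the first and second 1 µA/cm2 libraries. The main axis thus ran mostly between the replicates of the higher dose, and those of the lower dose lay apart less, in the same direction.

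The 63 members that were lowest in that library had median normalized counts, relative to each gene's treated mean, of 1.10 and 1.03 at 1 µA/cm2, and 1.25 and 0.617 at 2 µA/cm2. They included 14 of the 20 top-ranked members. The 27 that were highest there had 0.797 and 1.08, then 0.808 and 1.32, and they included rank 9. The remaining 19 members had medians between 0.952 and 1.10 in all 4 libraries. Among the 63, 6 were called higher and 3 lower in MF than CF, where 6.36% and 4.02% of all genes tested were. Among the 27 none was called by edgeR, where 10.4% of all genes tested were called in either direction. No difference between the classes is read from these small counts. These classes were formed from the treated values and carry no test.

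Each treated library was also left out of the rule and then examined. Of the 112 genes chosen without the first 1 µA/cm2 library, 110 (98.2%) lay above every untreated library in it. For the second 1 µA/cm2 library it was 107 of 108 (99.1%), and for the first 2 µA/cm2 library 117 of 119 (98.3%). For the second 2 µA/cm2 library it was 121 of 145 (83.4%), with a median smaller margin of 0.685, where the other 3 libraries gave between 1.18 and 1.21. Over all genes with a mean of at least 50 the shares were 17.8%, 18.7%, 20.6% and 17.1%, in the same order of libraries. The chosen genes had been picked for low values in the same untreated libraries. Their shares therefore describe how the treated libraries differ from each other and are no independent check.

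The rule was also applied to the libraries labelled replicate 1 alone and then read in those labelled replicate 2. The rule chose 185 genes in the first, and in the second both treated libraries lay above CF and MF in 120 of them (64.9%), where 25.5% of all genes with enough counts did. Both margins of 0.8 were met again in 68 (36.8%), and the median margins were 1.01 over CF and 0.744 over MF. In the other direction 125 genes were chosen, and 107 of them (85.6%) had both treated libraries above in replicate 1, against a background of 19.1%, with 66 (52.8%) meeting both margins. The median margins were then 1.12 and 1.13. Of the chosen genes, 93 and 81 were among the 109 members, an overlap that is built in because the members were chosen on these same libraries. The labels do not tie the libraries to separate isolations, so the replicate 1 and replicate 2 libraries may not be independent. The vst values had been computed over the 8 libraries together. The background shares cover all genes with enough counts and not genes of like spread. All these shares are therefore a description and no independent check of the pattern.

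The second count table, of whole numbers and of unstated pipeline, listed 103 of the members. In all 103 the treated mean was above the CF and MF means, and in 99 the treated and untreated libraries did not overlap. The share of all listed genes without overlap is not given here. Both tables come from the same libraries, on which the members were chosen, so this compares the tables and is no independent check. On the log2 CPM scale (counts scaled to equal library size) of these whole numbers, 90 members met the rule again, among 139 genes that did. The log2 fold changes of treated cells over MF in the tables had a median absolute difference of 0.0419, and 89 members agreed within 0.2.

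**Figure D5:**
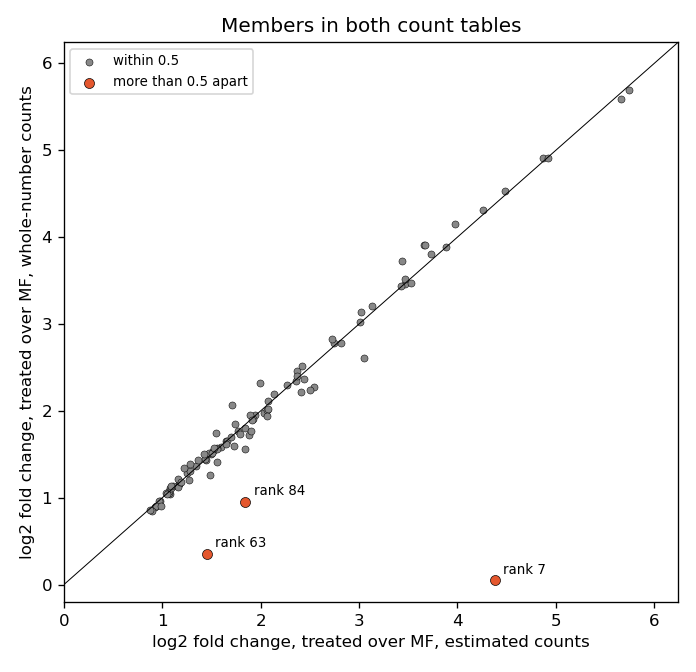
Log2 fold change of treated cells over MF from the estimated counts (x axis) and from the whole-number counts (y axis) for 102 members listed in both tables, leaving out the member at 0 in both MF libraries, with a line of equality. Members lie along the line apart from ranks 7, 63 and 84, which differ by more than 0.5.

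There were 3 members whose log2 fold changes over MF lay more than 0.5 apart in the tables, and 6 over CF, namely the same 3 and ranks 11, 19 and 59. Rank 11 was at 0 in CF, so its fitted value has no fixed size, and ranks 19 and 59 had 3.89 and 4.61 over CF in the estimated counts and 3.29 and 4.02 in the whole-number counts. Rank 7 had a log2 fold change over MF of 4.38 in the estimated counts and 0.05 in the whole-number counts, which held 260 times as many reads for this gene and a log2 fold change over CF of 0.00292. Its normalized estimated counts were 0 in both CF libraries and 1 MF library and 67.9 in the other, with 753 and 696 at 1 µA/cm2, and 91.9 and 1330.2 at 2 µA/cm2. Rank 63 had 1.45 and 0.35 over MF, and 1.51 and 0.25 over CF, with 5.38 times as many whole-number counts. Rank 84 had 1.84 and 0.96 over MF, and 1.47 and 2.33 over CF. In all, 13 of the 103 listed members did not meet the rule in the whole-number counts, and 6 members were not listed there. Rank 8 had a ratio of whole-number to estimated counts of 0.154, where the median over the members was 0.771, but similar log2 fold changes in the second table, 2.79 over MF and 4.44 over CF.

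Estimated counts are split among transcripts that share reads, and 23 members (21.1%) had a count more than 0.05 from a whole number in at least 1 library, against 32.7% of genes with a mean of at least 50. The authors' normalization also carries a factor for transcript length. Between the treated and untreated groups this factor differed by at most 0.0946 log2 units over the 106 members for which it could be computed, which is small beside margins of at least 0.816.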

How the data were processed

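RNA sequencing of 8 libraries (4 groups of 2) was analysed from the processed tables. The authors aligned reads to the rat transcriptome (rn6) with salmon and deposited estimated counts per gene. They also deposited these counts normalized with DESeq2, read here as a signal, and variance stabilised values on a log2 scale. The pipeline of the deposited matrix of whole-number counts is not stated, and the labels describe fastp and STAR. It lists 13341 genes, each with at least 80 counts in all. Total counts ranged from 18960425 to 26687203 in the matrix.

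Estimated counts were rounded and tested with edgeR 4.0.16 (limma 3.58.1, R 4.3.3) with filterByExpr, TMM scaling and its robust quasi-likelihood test, fitting each of the 4 groups separately within a model of all 8 libraries that left 4 residual degrees of freedom. The common biological coefficient of variation was 18.4%. Intervals are at 95%. Alternatives were DESeq2 1.42.0, RLE and upper quartile scaling, other filters and thresholds, the matrix, log2 CPM (prior count 2), a replicate block, only the groups compared, and leaving out each library. Applying the rule within each replicate number was chosen after seeing the data. The code of the fit was run on simulated counts, with changes set in the 2 µA/cm2 libraries alone. The simulation held no spread shared between libraries and no library set apart, so it does not bear on the results here. Figures were drawn with Python 3.11.15 and matplotlib 3.10.9.

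The members and lists were chosen with earlier results of these data known. Printed identifiers are the 2 with the largest smaller margin and the 2 most lower in MF than CF among those called. The other members are given by rank. Of these, ranks 3 to 9, 11, 29, 63, 84, 85, 91 and 100 were picked after their values were seen. Planned gene lists, cell type markers and promoter motifs were not run, since 0 of the Ensembl identifiers matched the RefSeq table used here (assembly GRCr8).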

Additional observations from a re-analysis of the deposited data

Results flagged for a closer look

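ENSRNOG00000020525 had a narrow range over the 4 treated vst values, 0.370 against a median of 0.745 over the members. Within it the first 1 µA/cm2 library was low. Its gap to the nearest treated library was 0.846 of that range, above Dixon's critical value for 4 samples. The ratio is relative to the range, so it does not mark a large difference. In ENSRNOG00000020030 the second 2 µA/cm2 library was low, with a ratio of 0.92. Of the 109 members, 6 passed that value, and chance flags about 1 in 20 groups. ENSRNOG00000012772 (0.796) and the members' share of each library (0.679) did not pass it.

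The whole-number counts held 1463 identifiers that are not in the estimated counts, and 12 of these identifiers met the membership rule on the log2 CPM scale. Their mean counts ran from 51.1 to 39272, and the median of their smaller margins was 0.921. The most abundant of them lay 4.09 above CF and 2.75 above MF, and another, with a mean count of 471, lay 4.82 and 5.31 above. The 109 members therefore do not hold every identifier that met the rule in the whole-number counts. Whether these 12 identifiers are genes apart from the members, or other annotations of members, was not tested.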

How the results depend on the processing

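No called value changed direction, and the median difference between the doses changed sign without 1 library. The set of 109 grew to 185 with a margin of 0.6 and to 185 with the rule on the replicate 1 libraries alone, and held between 108 and 145 genes with 1 library left out. Members called higher in MF than CF numbered 9, but 4 when the fit held CF and MF alone and 2 to 14 with 1 library left out. Those called lower numbered 4, but 7 with DESeq2 and 0 to 5 with 1 library left out. Members called higher in treated cells numbered 77 over MF, 1 to 85 with 1 library left out, and 78 over CF, 57 to 90 with 1 library left out. Leave-one-out medians of the log2 fold change ran from 1.77 to 2.19 over CF, 0.072 to 0.27 for MF against CF and -0.39 to 0.079 between the doses. Leaving out either MF library leaves a single library in that group, whose spread is then taken from the others. The cause of the other changes was not tested. Of 110 values of the 4 identified members, 4 moved by more than the replicate spread, all in ENSRNOG00000020525: 2.64 and 3.02 over MF without the first or second MF library, and 1.49 and 0.50 over CF without the first or second CF library.

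With the replicate number as a block, 74 members were called over MF, 81 over CF, 6 higher and 5 lower in MF than CF, and 0 between the doses, all within 1.5 times the unblocked counts. Of the 6 pairs of groups, the same-numbered libraries of 1 µA/cm2 and 2 µA/cm2 deviated together, with a correlation of 0.362 over all genes and 0.582 over the members, and the other pairs gave -0.298 to 0.0886 over all genes. Over the members the other pairs gave -0.318 to 0.104. The main fit did not pair the samples by number. Whether the numbers pair the 1 µA/cm2 and 2 µA/cm2 libraries is not known.

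With 2 libraries per group, intervals between the doses span several fold for the members with the largest margins.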
